A study of Rattus norvegicus with 18 samples.

Results

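Photoreceptor transcription factors were followed as a set of 10 named genes: Otx2, Crx, Neurod1, Rorb, Nrl, Nr2e3, Esrrb, Mef2d, Thrb and Rxrg. The members were given as a list of symbols. All 10 had an identifier in the retina count table, which lists 32285 genes, and all 10 had one in the RPE/choroid count table, which lists 32552 genes. By symbol, 9 of the 10 were found in the normalized retina table, where the Otx2 row stands under another name.

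The libraries were bulk RNA-Seq of tissue from wild-type (WT) female Fischer344 rats, an inbred albino strain whose retina degenerates slowly with age. Neural retina and RPE/choroid (the retinal pigment epithelium with the vascular layer behind it) were each taken from 3 groups of 3 libraries. Young rats were 4 months old and untreated, aged rats were 24 months old and drank plain water, and treated aged rats were also 24 months old. The treated rats had received 8-aminoguanine (8-AG), an inhibitor of purine nucleoside phosphorylase, at 5 mg/kg body weight per day in the drinking water for 8 weeks from 22 months of age. By their labels 15 libraries were made from polyA RNA, and the 3 treated retina libraries from total RNA, although the protocol describes polyA capture for all retina libraries. RPE/choroid young libraries 1 and 2, and aged libraries 1 and 2, share a number in their labels and differ in L or R, but no label says which libraries came from one rat. So the p-values measure the spread between libraries, which may be partly technical.

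Vertebrate photoreceptors are specified and maintained by a small network of DNA-binding proteins. Otx2 commits retinal progenitors to the photoreceptor fate and switches on Crx, which activates rod and cone genes alike. Nrl, whose transcription needs Rorb, then drives rod genes and induces Nr2e3, a nuclear receptor that keeps cone genes silent in rods, while Thrb and Rxrg set the opsin choice of cones.

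Crx and Otx2 are homeodomain proteins, and their shared core site TAATCC was searched on both strands (reverse complement GGATTA) in RefSeq promoters of build GRCr8, from 250 bases before to 50 bases after each start site. A promoter was listed for 9 of the 10 members, all but Otx2. The promoters of Crx, Nrl and Thrb are shown for their 250 bases before the start site, because Crx and Thrb were the 2 members with a match and Nrl had the largest fall with age among the members called. Capitals mark the match, written 5′ to 3′ in the direction of transcription. They lie at chr1:85681853-85682102, chr15:32981443-32981692 and chr15:10461447-10461696, all on the minus strand.
Crx: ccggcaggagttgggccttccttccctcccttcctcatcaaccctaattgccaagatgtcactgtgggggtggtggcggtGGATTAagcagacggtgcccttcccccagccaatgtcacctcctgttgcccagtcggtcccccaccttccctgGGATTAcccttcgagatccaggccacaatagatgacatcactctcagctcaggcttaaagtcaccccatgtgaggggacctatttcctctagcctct
Nrl: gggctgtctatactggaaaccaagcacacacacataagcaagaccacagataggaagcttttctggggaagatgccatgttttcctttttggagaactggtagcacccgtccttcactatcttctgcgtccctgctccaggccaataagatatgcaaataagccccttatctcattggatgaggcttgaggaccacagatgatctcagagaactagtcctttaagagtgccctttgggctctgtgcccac
Thrb: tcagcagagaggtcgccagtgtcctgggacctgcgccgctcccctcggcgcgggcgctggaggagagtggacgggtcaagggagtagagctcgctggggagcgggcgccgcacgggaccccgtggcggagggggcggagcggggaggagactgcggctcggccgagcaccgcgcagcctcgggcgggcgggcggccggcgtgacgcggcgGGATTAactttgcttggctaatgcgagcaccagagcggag

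The Crx promoter held 2 matches, with first letters 170 and 97 bases before the start site, and the Thrb promoter held 1 match at 40 bases. TAATCC was found in 7.17% of all 33469 promoters and in 5 of the 14 rod gene promoters listed. The core TGCTGA, bound by Nrl-type proteins, was in 4 of the 9 member promoters (Mef2d, Neurod1, Rorb and Thrb) and in 18.4% of all promoters. The E-box CANNTG, bound by Neurod1-type proteins, was in 7 of 9 member promoters and in 72.1% of all promoters, and in Neurod1 it overlapped TGCTGA. The nuclear receptor core AGGTCA was in 0 of the 9 windows and in 16.2% of all promoters. These are matches of letters only.

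Depth and markers were checked first. The retina libraries held 12283458 to 15644346 counts and the RPE/choroid libraries 28573828 to 48203050. Levels are given as CPM, the count of a gene relative to its library's total after TMM scaling within a tissue, and they are compared between libraries for one gene, not between genes, since transcript length was not used. Every retina library carried the rod, bipolar, amacrine and horizontal, ganglion and Müller marker lists, with no listed marker at 0 in all libraries. Microglia markers (9 genes) summed to 34.6 to 36.5 CPM in young, 103 to 173 CPM in aged and 114 to 121 CPM in treated retina, and 10 lens genes summed to 135 to 5290, 17.0 to 23.6 and 19.5 to 1430 CPM. In the same order, 4 surface epithelium genes summed to 1.02 to 3.9, 2.35 to 3.32 and 7.53 to 19.8 CPM, 12 RPE genes to 72.7 to 192, 111 to 262 and 215 to 396 CPM, and 10 bipolar genes to 1480 to 1620, 1170 to 1570 and 1030 to 1310 CPM. Müller markers (8 genes) summed to 6070 to 6380, 5690 to 5750 and 5700 to 5960 CPM, and 10 ganglion genes to 995 to 1070, 1060 to 1210 and 1130 to 1300 CPM. The part of these cells in the results was not tested. One RPE/choroid library, 8-AG library 1, stood apart: 19 rod genes summed to 62200 CPM there and to at most 22500 CPM in the other 8 libraries, and 12 RPE genes to 5880 CPM against at least 9700 CPM.

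Otx2 could not be measured cleanly. Its identifier (ENSRNOG00000056186) and that of LOC100911492 (ENSRNOG00000048322), a near copy, carried the same expected count in each of the 9 retina libraries, from 674.5 to 955.5, as an even split of common reads would give. In RPE/choroid the Otx2 identifier held 0 to 32 counts and the copy 1 to 36. Otx2 is also a known regulator of the RPE, and how reads that fit both copies were counted in that tissue is not given in the sources used here. Its level there is therefore uncertain. Otx2 is reported below from its own identifier.

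In aged retina, 5 of the 9 members found by symbol fell relative to young retina: Nrl to 0.564, Neurod1 to 0.635, Crx to 0.624, Mef2d to 0.691 and Thrb to 0.759 of the young level (edgeR quasi-likelihood test, adjusted p under 0.05). By the same test 0 rose. Across all 14588 genes tested, 7.26% were called lower and 7.29% higher. The groups did not overlap, with aged below young, for 7 of the 9, against 17.5% of all genes. The study's own rule was more than 1.5-fold at p under 0.05, taken here as before adjustment. By it 4 members were lower, Crx, Nrl, Neurod1 and Esrrb, against 2.39% of all genes. Without aged library 3 that count was 3, as Esrrb dropped out, beside 360 of 14795 genes. Without aged library 1 it was 5, beside 408 of 14789 genes. The median log2 fold change was -0.53 over the 9 members and 0.002 over all genes. In bulk tissue, fewer photoreceptors, less RNA in each photoreceptor and a change in other cells cannot be told apart.

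Among the factors shared by rods and cones, Crx (ENSRNOG00000013890), the cone-rod homeobox protein, stood at 320, 302 and 294 CPM in the young libraries, 177, 171 and 223 CPM in the aged libraries and 197, 210 and 261 CPM in the treated libraries. Every aged and treated library lay below every young library, and aged and treated libraries overlapped. The log2 fold change was -0.68 ± 0.10 (SE) in aged against young retina, with an adjusted p of 0.0025 by edgeR. Treated against young retina gave -0.45 ± 0.10 (edgeR adjusted p = 0.015), and treated against aged retina 0.23 ± 0.13, which was not called (edgeR adjusted p = 1.0). The call against young retina was lost without 8-AG library 2 or young library 1 or 2, at adjusted p from 0.064 to 0.078.

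Neurod1 (ENSRNOG00000005609), a basic helix-loop-helix factor that sustains photoreceptor survival, read 249, 250 and 270 CPM in young, 155, 153 and 180 CPM in aged and 180, 204 and 170 CPM in treated retina. All 6 libraries of old rats were below the young ones. Its log2 fold change was -0.66 ± 0.07 with age (edgeR adjusted p = 0.00049), -0.47 ± 0.08 in treated against young retina (adjusted p = 0.0039) and 0.19 ± 0.09 in treated against aged retina (not called).

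Mef2d (ENSRNOG00000031778), a MADS-box factor that acts with Crx at photoreceptor enhancers, read 191, 186 and 187 CPM in young, 138, 113 and 138 CPM in aged and 135, 128 and 147 CPM in treated retina. The young values were tightly grouped and lay above all others. Mef2d fell by 0.53 ± 0.08 on the log2 scale with age (edgeR adjusted p = 0.0024), and treated retina stayed 0.45 ± 0.06 below young (adjusted p = 0.0018).

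Otx2 gave 64.3, 58.8 and 65.0 CPM in young, 55.0, 43.0 and 59.7 CPM in aged and 52.8, 61.4 and 59.0 CPM in treated retina. The 3 groups overlapped. Its change with age was -0.25 ± 0.11 on the log2 scale and was not called (edgeR adjusted p = 0.18).

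Of the rod factors, Nrl (ENSRNOG00000018528), the leucine zipper protein that decides rod over cone fate, stood at 335, 304 and 328 CPM in young, 155, 180 and 210 CPM in aged and 165, 199 and 226 CPM in treated retina. The lowest young library was well above the highest library of either old group. The change with age was -0.83 ± 0.10 (edgeR adjusted p = 0.0012), and treated against young retina gave -0.71 ± 0.10 (adjusted p = 0.0026). Treated against aged retina gave 0.12 ± 0.14, with the groups overlapping.

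Nr2e3 (ENSRNOG00000050690), the rod-specific nuclear receptor, read 167, 163 and 172 CPM in young, 148, 101 and 156 CPM in aged and 133, 162 and 196 CPM in treated retina. The aged libraries were all below the young ones but spread widely, and the treated libraries reached both below and above young. The change with age, -0.30 ± 0.16, was not called (edgeR adjusted p = 0.29).

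Rorb (ENSRNOG00000013413), the nuclear receptor upstream of Nrl, gave 95.8, 97.3 and 143 CPM in young, 101, 75.4 and 78.2 CPM in aged and 106, 119 and 91.9 CPM in treated retina. Young library 3 was apart from the other two, and the groups overlapped in every comparison. Its change with age was -0.40 ± 0.20 (edgeR adjusted p = 0.27, not called).

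Esrrb (ENSRNOG00000010259), an orphan nuclear receptor that sustains energy metabolism in rods, varied most, from 33.1 to 186 CPM over the 9 retina libraries. It read 110, 102 and 186 CPM in young, 64.3, 33.1 and 52.4 CPM in aged and 72.4, 106 and 93.5 CPM in treated retina. All aged libraries lay below all young and all treated libraries, and treated and young libraries overlapped. The change with age was the largest of the members, -1.41 ± 0.38, but was not called by edgeR (adjusted p = 0.084), while DESeq2 (adjusted p = 0.0041) and an edgeR fit of all 3 retina groups (adjusted p = 0.039) called it. Over the 6 fits that each left out 1 library, the change ran from -1.64 to -1.10 and edgeR called it in none.

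Thrb (ENSRNOG00000006649), the thyroid hormone receptor gene that sets medium-wavelength cone identity, stood at 153, 153 and 152 CPM in young, 109, 114 and 124 CPM in aged and 121, 127 and 120 CPM in treated retina. Old and young libraries did not overlap. Thrb fell by 0.40 ± 0.06 on the log2 scale with age (edgeR adjusted p = 0.0027), and the treated level stayed 0.31 ± 0.06 below young (adjusted p = 0.0069).

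Rxrg (ENSRNOG00000004537), the retinoid X receptor of cones and partner of Thrb, was the only member with a positive change with age in retina. It rested on 60 to 106 counts in a retina library. Its levels were 5.78, 5.40 and 4.22 CPM in young, 4.66, 6.76 and 5.68 CPM in aged and 6.53, 5.69 and 6.82 CPM in treated retina, and the groups of aged and young overlapped. The change with age was 0.16 ± 0.20 (edgeR adjusted p = 0.65, not called).

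**Figure D1:**
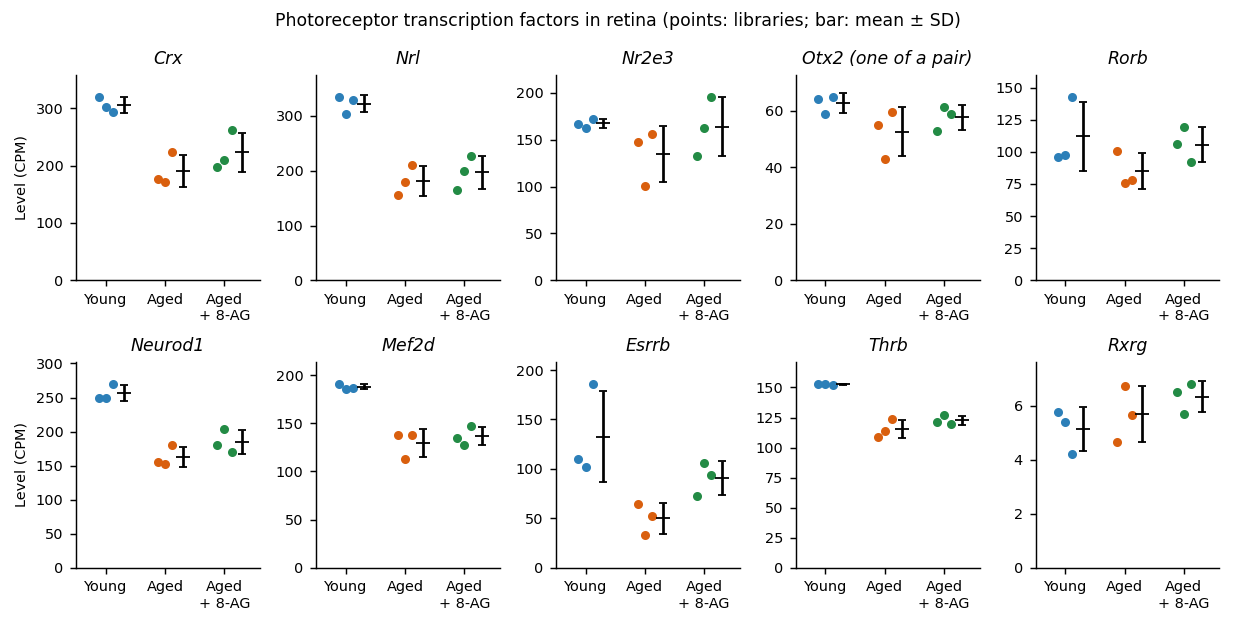
Level of each member in retina (CPM, linear axis from 0) by age and 8-AG treatment; points are the 3 libraries of a group and the bar is their mean ± SD. Crx, Nrl, Neurod1, Mef2d and Thrb show no overlap between young and either old group, while Rxrg, at 4.22 to 6.82 CPM, overlaps throughout.

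The second question of the study was the effect of 8-AG in aged rats. All 9 members found by symbol, and Otx2 as well, had a log2 fold change above 0 in treated against aged retina, from 0.08 for Mef2d to 0.86 for Esrrb, against 49.0% of all genes above 0. The edgeR test called 0 of them (3 of 14631 genes were called in all, 0.0205%), and 2 members, Esrrb and Rorb, had an unadjusted p under 0.05, as had 537 of all genes tested. At that threshold a fit of all 3 groups gave Esrrb and Neurod1 instead (695 of 14875 genes), and a fit with the labels' replicate numbers as a block gave Crx and Rorb (722 of 14889 genes). DESeq2 called 1, Esrrb, among 18 genes. Aged libraries enter this comparison and the aging comparison alike, so their signs are not independent of each other. Above 0 were also 15 of 19 rod genes, 6 of 12 other photoreceptor regulators and 5 of 10 cone genes, the lists described below. The median was 0.17 over all 10 members and 0.20 over the rod genes. The treated retina libraries are those labelled total RNA, so treatment and that label cannot be told apart here.

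Esrrb was the member with the largest difference between treated and aged retina, at 1.81 times the aged level (log2 fold change 0.86 ± 0.28, edgeR adjusted p = 1.0, DESeq2 adjusted p = 0.018). It was also the 1 member whose treated and aged groups did not overlap, a pattern found with higher treated values in 4.57% of all genes. By the study's rule it was the 1 member that differed, against 0.957% of all genes, and it no longer met that rule with the replicate block or without 8-AG library 3 or aged library 3. Leaving out 1 library at a time gave 0.64 to 1.09 and no edgeR call. Rorb gave 0.32 ± 0.14 (unadjusted p = 0.045), with overlapping groups.

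Treated retina was still below young retina for 5 of the 9 members: Crx, Nrl, Neurod1, Mef2d and Thrb were called lower by edgeR, against 7.1% of all 14542 genes. The same 5 were the members whose treated and young groups did not overlap, against 18.3% of all genes lower without overlap. Esrrb was at 0.686 of the young level with overlapping groups (log2 fold change -0.54 ± 0.29, edgeR adjusted p = 0.3), Nr2e3 at 0.983 and Rxrg at 1.24, neither called.

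**Figure D2:**
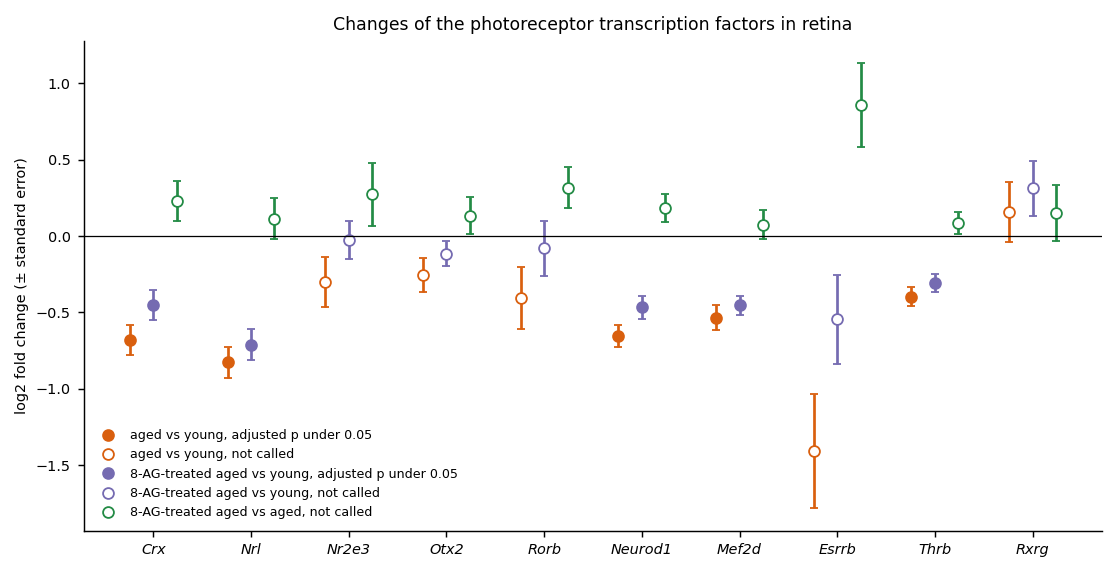
Log2 fold change (vertical axis, ± standard error) of each member in the 3 retina comparisons, with filled points where the edgeR adjusted p was under 0.05. Changes against young retina are below 0 for every member but Rxrg, and treated against aged changes are all above 0, from 0.08 to 0.86, with none filled.

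Genes that these factors act on or with were counted in the same fits, from lists of known regulators, rod genes and cone genes. Beside them, 7.26% of all genes tested fell and 7.29% rose. Of 12 other photoreceptor regulators, 5 fell with age and 0 rose, and the median change was -0.23 on the log2 scale. The 3 largest falls were in Casz1, a zinc finger protein of rods (-0.86 ± 0.09, edgeR adjusted p = 0.00047), Prdm1, which blocks the bipolar fate in photoreceptor precursors (-0.84 ± 0.08, adjusted p = 0.00024), and Samd11, a Polycomb-associated protein of photoreceptors (-0.56 ± 0.09, adjusted p = 0.0042).

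Of 19 rod genes measured, 17 fell with age and 0 rose, and the median log2 fold change was -0.67. Gnat1, rod transducin alpha, changed by -1.18 ± 0.08 (edgeR adjusted p = 5.6e-05), Reep6, which serves rod membrane traffic, by -1.18 ± 0.08 (adjusted p = 6.3e-05), and Slc24a1, the rod sodium/calcium-potassium exchanger, by -0.95 ± 0.07 (adjusted p = 9.9e-05). In treated against aged retina 0 of the 19 were called by edgeR, with 6 at an unadjusted p under 0.05, beside 537 of all 14631 genes, and a median of 0.20.

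Of 10 cone genes, 4 fell with age and 1 rose, beside the same 7.26% and 7.29% of all genes, with a median of -0.21. Cnga3, a cone channel subunit, changed by -0.93 ± 0.21 (edgeR adjusted p = 0.015, but 0.056 by DESeq2, 0.05 without aged library 3 and 0.059 without young library 2, where the call was lost), and the cone opsin genes Opn1sw and Opn1mw by -0.59 ± 0.09 and -0.51 ± 0.10 (adjusted p = 0.0023 and 0.0064). Gnb3, the transducin beta subunit of cones that ON bipolar cells also use, rose by 0.93 ± 0.10 (adjusted p = 0.00079).

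**Figure D3:**
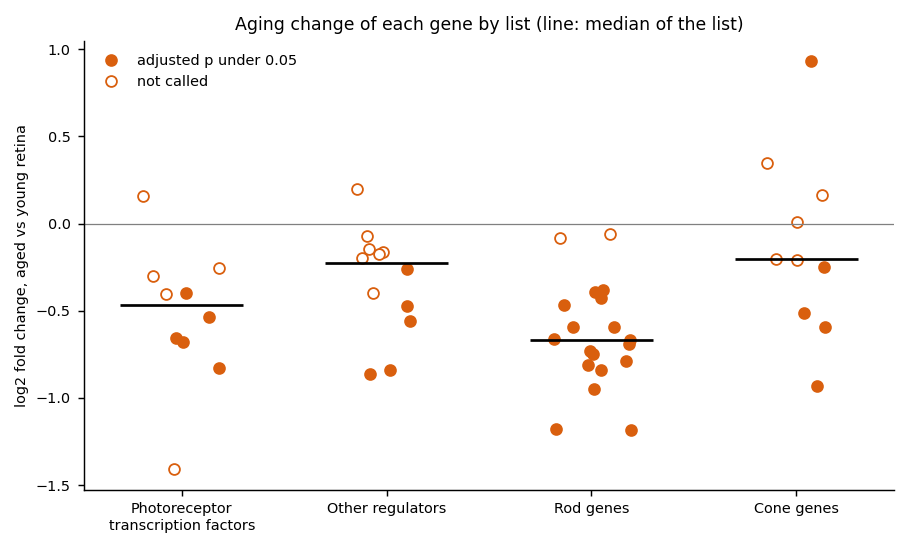
Log2 fold change of aged against young retina for each gene of 4 lists (all 10 members, 12 other regulators, 19 rod genes, 10 cone genes); filled points have an edgeR adjusted p under 0.05 and lines are medians. The rod genes lie from -1.18 to -0.06, and the 1 filled point above 0 is Gnb3.

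Since rod genes moved with the factors, each member was also set against them: its CPM per 10000 CPM of the 19 rod genes in the same library. This ratio was chosen after the levels had been seen, and it is given as a description with no test. Summed rod genes ran from 70800 to 76900 CPM in young, 44300 to 49700 CPM in aged and 44900 to 59500 CPM in treated retina. A gene whose CPM did not change with age would therefore gain in this ratio. How many of all genes differed between groups in the ratio was not counted. Crx kept within 38.1 to 44.8 over all 9 retina libraries, with group means of 41.0 ± 2.4 (SD, n = 3) in young, 41.0 ± 3.5 in aged and 42.1 ± 3.0 in treated retina. Neurod1 had means of 34.4, 35.1 and 35.5. For both, the group means differed by less than the spread between libraries, while their CPM levels were lower in aged retina.

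For Nrl the ratio was 43.2 ± 0.65 in young, 39.1 ± 3.7 in aged and 37.1 ± 0.72 in treated retina, and the treated libraries (36.6 to 37.9) did not reach the young ones (42.7 to 43.9). For Nr2e3 it went the other way, at 22.4 ± 0.61, 29.1 ± 5.9 and 30.8 ± 1.9 in young, aged and treated retina, and the treated libraries (29.7 to 32.9) lay above the young ones (21.8 to 23.0). The Rorb ratio ran from 12.5 to 18.7, 15.7 to 22.7 and 15.4 to 23.7 and the Mef2d ratio from 24.3 to 26.2, 25.2 to 31.2 and 23.6 to 30.1 in the same order, with overlapping groups. For Thrb it was 20.5 ± 0.99 in young and 25.0 ± 0.39 in aged retina, again without overlap. Thrb was thus lower in aged libraries but fell less than the summed rod genes did. Its treated ratio, 23.5 ± 3.4 (20.1 to 27.0), overlapped young (19.8 to 21.6). Rxrg went from 0.69 ± 0.12 in young to 1.23 ± 0.24 in aged and 1.22 ± 0.21 in treated retina. Esrrb was the member with the lowest aged ratio relative to young, at 17.7 ± 5.6, 10.8 ± 3.6 and 17.1 ± 2.1 in young, aged and treated retina, but aged library 1 (14.5) lay above young libraries 1 and 2 (14.4 each) and young library 3 stood at 24.2.

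**Figure D4:**
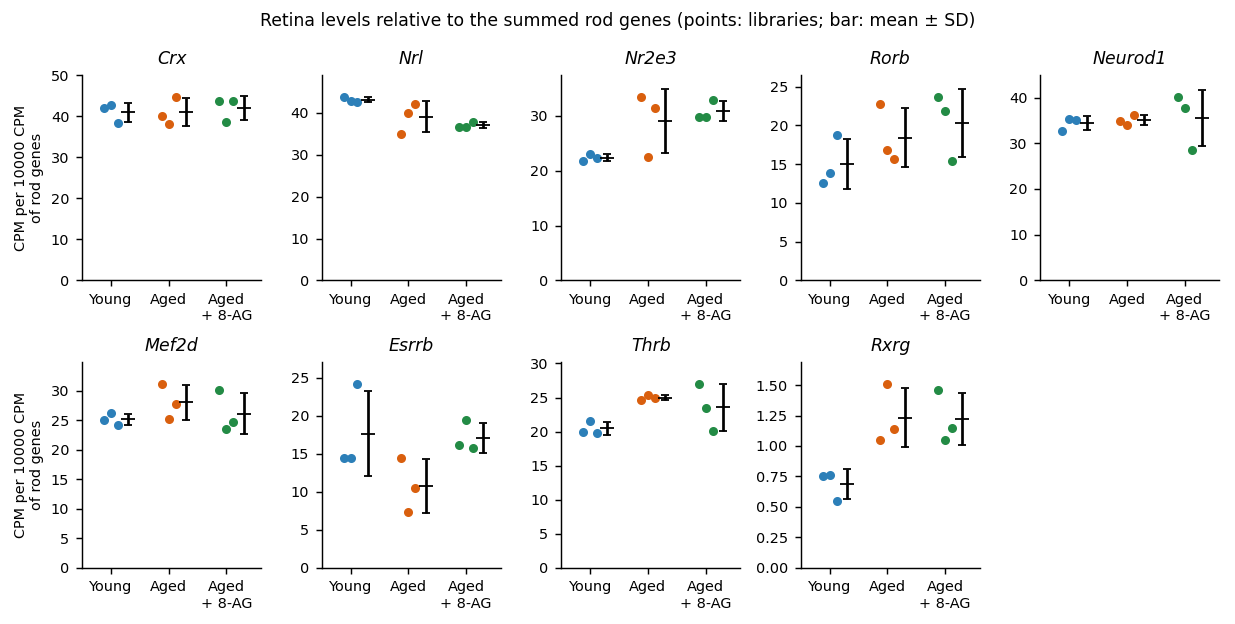
CPM of each member per 10000 CPM of 19 rod genes in the same retina library (linear axis from 0), with points for libraries and the bar for mean ± SD. Otx2 is left out because its retina counts equal those of a near copy. Crx has means of 41.0, 41.0 and 42.1 in the 3 groups, and Esrrb dips to 10.8 in aged retina.

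The genes whose levels most resembled a member over the 9 retina libraries were found by Pearson correlation of log2(CPM + 0.5) among genes with a mean of at least 1 CPM and a symbol; the libraries form age groups, so these values are descriptions. For Crx they were Aipl1 (0.992), a photoreceptor chaperone gene, Nim1k (0.989) and Dlc1 (0.986). For Nrl they included Rhpn1 (0.996) and RGD1597339 (0.993). For Otx2, with its near copy LOC100911492 left out because its counts were the same, they were RGD1563888 (0.973), Tbc1d32 (0.953) and LOC108348130 (0.939), and for Rxrg they were Npy (0.953), Tmem120a (0.952) and Isoc1 (0.944).

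In RPE/choroid the rod-linked members moved with the amount of retinal RNA in a library, rod RNA included. Summed rod genes ran from 802 to 62200 CPM, a 77.5-fold range, and Crx ranged 79.4-fold, Nrl 128-fold, Nr2e3 85.7-fold, Neurod1 82.9-fold and Esrrb 134-fold over the same 9 libraries. The 5 libraries with the most rod RNA were also the 5 highest for Crx, Nrl, Nr2e3, Rorb, Neurod1 and Esrrb, as for 14.1% of the 14594 genes with a mean of at least 1 CPM. They were the 5 highest too for the summed cone, bipolar (87.1 to 1270 CPM), amacrine and horizontal (35.9 to 627 CPM) and ganglion (181 to 1080 CPM) markers, so the pattern was not particular to rod genes. Thrb ranged 1.94-fold, Rxrg 4.67-fold and Mef2d 5.03-fold. Neural retina is lifted off before the eye cup is washed out, and the part of retina left behind in these values was not tested.

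Crx showed the pattern clearly, at 132, 95.7 and 6.98 CPM in young, 119, 2.63 and 89.2 CPM in aged and 209, 5.09 and 4.67 CPM in treated RPE/choroid. Rod genes summed in the same order to 20500, 22500 and 2330 CPM, 13300, 802 and 18900 CPM, and 62200, 1100 and 1050 CPM. Low libraries occurred in every group. Per 10000 CPM of rod genes, Crx spanned 30.0 to 90.2, a 3.01-fold range.

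Nrl ran in parallel, at 80.3, 64.9 and 5.34 CPM in young, 55.9, 1.42 and 39.6 CPM in aged and 181, 3.50 and 1.49 CPM in treated RPE/choroid. Nr2e3 ran from 1.39 to 119 CPM, Neurod1 from 1.83 to 152 CPM, Rorb from 3.23 to 26.9 CPM and Esrrb from 0.118 to 15.8 CPM, with the 8-AG library 1 highest for each. Mef2d ran from 3.69 to 18.6 CPM and Otx2 from 0 to 0.978 CPM. Groups overlapped for all of these.

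Thrb had the narrowest range, at 51.5, 50.2 and 60.7 CPM in young, 47.8, 48.1 and 57.9 CPM in aged and 66.3, 60.1 and 34.3 CPM in treated RPE/choroid. Its aging change there was -0.08 ± 0.13 on the log2 scale (edgeR adjusted p = 1.0). The groups overlapped. Whether the aging change of a member differed between retina and RPE/choroid was tested with an interaction term, and edgeR called 0 of the 10 members (27 of 16792 genes were called, 0.161%), with none at an unadjusted p under 0.05 and the lowest adjusted p, 0.65, for Thrb. By limma voom 0 were called as well. All other fits called 0 too. Thrb passed the unadjusted threshold with at least 10 counts in every library (-0.33, as did 923 of 12364 genes) and with the replicate block (-0.31, 1111 of 17166). It also passed without RPE/choroid young library 3 (-0.4, 1186 of 16635) or aged library 2 (-0.34, 2127 of 16619). Mef2d passed without young library 1 (-1.51, 1564 of 16645). Simulated RPE/choroid data recovered 0% of 2-fold changes, so no call does not mean no difference.

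**Figure D5:**
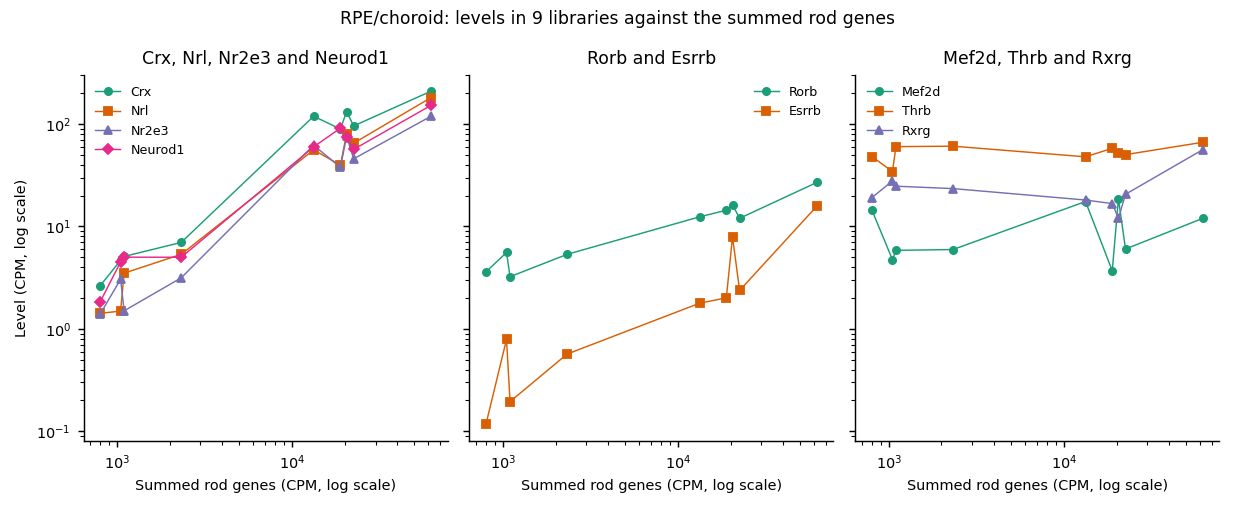
Level of 9 members in the 9 RPE/choroid libraries (CPM, log axis) against the summed level of 19 rod genes in the same library (CPM, log axis); lines join the libraries of one gene in order of rod level, and Otx2, with a value of 0, is left out. Crx, Nrl, Nr2e3 and Neurod1 climb with the rod genes from 802 to 62200 CPM, whereas Thrb stays between 34.3 and 66.3 CPM.

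No member was called between groups in RPE/choroid. In aged against young tissue edgeR called 0 of the 10 members and 0.0% of 16047 genes, with 0 members and 341 genes at an unadjusted p under 0.05, and DESeq2 called 0 members and 29 genes. The standard errors of the rod-linked members were wide: the Crx change was -0.15 ± 1.40 and the Nrl change -0.63 ± 1.34. Between treated and aged tissue edgeR again called 0 of 10 members and 0.0% of 16257 genes, with 1 member and 274 genes at an unadjusted p under 0.05, and DESeq2 called 0 members and 81 genes. Between treated and young tissue the counts were 0 of 10 members and 0.0% of 16215 genes, with 0 members and 341 genes at an unadjusted p under 0.05 and 0 members and 98 genes called by DESeq2. Without 8-AG library 1, 4 members (Crx, Nrl, Nr2e3 and Neurod1) passed the unadjusted threshold and the study's rule in treated against young tissue, as did 798 and 684 of 16484 genes, with log2 fold changes from -4.33 to -3.25, and edgeR called 0 after adjustment (lowest adjusted p = 0.77). In the same comparison Rxrg passed both without 8-AG library 2 (1.22), as did 1266 and 1202 of 16654 genes. It also passed both in the fit of all 3 groups (0.97), as did 563 and 512 of 16625 genes, again with 0 called.

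In the main edgeR fits Rxrg was the 1 member with an unadjusted p under 0.05, for treated against aged RPE/choroid. It read 12.0, 20.6 and 23.4 CPM in young, 18.1, 19.1 and 16.7 CPM in aged and 56.2, 24.7 and 27.8 CPM in treated tissue. The treated libraries were above all aged libraries, as in 2.09% of genes, and above all young libraries, as in 2.7% of genes. The log2 fold change against aged was 1.05 ± 0.38 (unadjusted p = 0.035, edgeR adjusted p = 1.0). The gene met the study's rule as taken here (1.5-fold, unadjusted p under 0.05), as did 1.65% of genes. It no longer met that rule with the replicate block, with label-sharing libraries summed, or without 8-AG library 1 or any 1 of the aged libraries. Without 8-AG library 1 it was 0.54 ± 0.18 (adjusted p = 0.92).

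Without 8-AG library 1 the rod-linked members also changed direction between treated and aged RPE/choroid, Crx from 0.13 to -3.86 and Nrl from 1.03 to -3.70 on the log2 scale, still with no call (edgeR adjusted p = 0.92 for both). That library held 970 CPM of 4 surface epithelium genes, 643 CPM of 7 endothelial genes and the 62200 CPM of rod genes. The part of this mixture in the Rxrg value was not tested.

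In RPE/choroid, the genes most like Crx over the 9 libraries were Grk1 (Pearson r = 0.997), Ankrd33 (0.996) and Rgs9bp (0.996), and those most like Nrl were Nxnl1, Opn1mw and Rp1 (0.996 each). For Rxrg they were Eya1 (0.974), Fhl3 (0.971) and Dut (0.964). Otx2 was below the minimum of 1 CPM.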

How the data were processed

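For retina the authors deposited RSEM expected counts of each library, and for RPE/choroid raw read counts of each library, both by Ensembl gene. The submitters' processing notes name Bowtie2 2.1.0, RSEM 1.2.15, edgeR and build Rnor_6.0; the counting program for RPE/choroid is not given in the sources used here. The authors' table of TMM-normalized retina signal served only to pair symbols with identifiers. The authors' comparison columns (fold changes, p-values, adjusted p-values) and their normalized RPE/choroid counts were not used.

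Expected counts were rounded. Comparisons used only the 6 libraries compared and the edgeR quasi-likelihood test (edgeR 4.0.16, R 4.3.3, default filterByExpr, TMM, glmQLFit with robust=TRUE, glmQLFTest), with Benjamini-Hochberg adjustment over all genes tested and calls at adjusted p under 0.05. The interaction used 12 libraries. DESeq2 1.42.0 and limma 3.58.1 (voom) were alternatives, with RLE scaling, other filters, a fit of all 3 groups, the replicate number as a block, unrounded counts, libraries sharing a label number summed (young 1 and 2, aged 1 and 2 of RPE/choroid), a rod covariate, and each library left out. Summing the Otx2 pair and the ratio to rod genes were added after seeing the data. In simulated data 99% of 200 genes changed 2-fold were recovered for aged against young retina (14588 genes), with 20 false calls, and 0% for aged against young RPE/choroid (16047 genes), with 0 false calls. Deviations of genes from their group means were correlated between libraries of different groups. Same-numbered libraries gave -0.302 to 0.246 in retina and -0.615 to 0.689 in RPE/choroid. Differently numbered ones gave -0.439 to 0.433 and -0.734 to 0.819, so numbers were not taken as pairs.

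Named were all members, and from the other lists the called genes in aged against young retina with the 3 largest falls and 3 largest rises; a further gene that the rules name is not reported here. The likeness rule was applied to Crx, Nrl, Otx2 and Rxrg. Of 20 rod genes listed 19 matched a symbol. Members and lists were chosen with earlier results of these data known.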

Additional observations from a re-analysis of the deposited data

How the results depend on the processing

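In aged against young retina the 5 calls held in all 6 fits without 1 library and in all 8 other alternatives run, and in treated against young retina 4 to 5 members stayed called. Genes called ran from 1245 to 2312 over the aged against young retina fits without 1 library, from 0 to 3 in treated against aged retina, from 1026 to 2451 in treated against young retina and from 0 to 49 for the interaction. Among these, aged against young retina gave 1336 and 1245 genes without young library 1 and 2. Treated against young retina gave 1048 without 8-AG library 2, and 1314, 1026 and 1212 without young library 1, 2 and 3. Treated against aged retina gave 0 without 8-AG library 2 or aged library 1 or 3, and 1 without 8-AG library 3. The interaction gave 25 genes without aged retina library 3, 49 without aged RPE/choroid library 2, and 0 to 6 without any other single library. In treated against aged retina 18 genes and 1 member were called by DESeq2, 10 genes with no filter and 0 with at least 10 counts in every library. DESeq2 called 29, 81 and 98 genes in RPE/choroid (aged against young, treated against aged, treated against young), where edgeR called 0, and the rod covariate 1 in the first. The interaction called 4 genes with RLE, 6 with voom and 11 with at least 10 counts in every library. DESeq2 gave no value for Esrrb in treated against aged RPE/choroid. The causes were not tested.

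The labels' replicate numbers were not taken as pairs of rats. With them as a block, treated against aged retina called 1 gene and the interaction 0; it changed no call of a member at an adjusted p under 0.05, but Esrrb in retina and Rxrg in RPE/choroid no longer met the study's rule in treated against aged tissue. In RPE/choroid the replicate block turned Neurod1 to -0.31 in aged against young, and Crx to -0.45, Nr2e3 to -0.67, Rorb to -0.12 and Neurod1 to -0.014 in treated against aged tissue.

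Other changes of direction were in values that were not called. With label-sharing libraries summed, aged against young RPE/choroid gave Crx 0.30, Nr2e3 0.12 and Rorb 0.19, and treated against aged Otx2 -0.071 and Neurod1 -0.10. With the rod covariate, aged against young gave Crx 0.49, Nr2e3 0.46 and Rorb 0.10, and treated against aged Crx -0.41, Nrl -0.026, Nr2e3 -0.39 and Neurod1 -0.079. With that covariate 0 members were called after adjustment, but Neurod1 in aged against young (0.60), Esrrb and Rxrg in treated against aged (1.49 and 0.98) and Rxrg in treated against young tissue (1.01) met the study's rule, as did 1183 of 16569, 1198 of 16905 and 3276 of 16799 genes.

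Leaving out 1 library at a time gave log2 fold changes on both sides of 0. In treated against aged retina Mef2d ranged from -0.012 to 0.13. In treated against young retina the range was -0.17 to 0.10 for Nr2e3 and -0.18 to 0.13 for Rorb. The ranges in aged against young RPE/choroid were for Crx -0.79 to 0.45, Nr2e3 -1.11 to 0.46, Otx2 -0.12 to 1.70, Rorb -0.49 to 0.25, Neurod1 -0.54 to 0.72, Mef2d -0.17 to 0.99 and Rxrg -0.30 to 0.12. Those in treated against aged RPE/choroid were for Crx -3.86 to 0.73, Nrl -3.70 to 1.66, Nr2e3 -3.89 to 1.14, Otx2 -0.94 to 0.78, Rorb -1.21 to 0.73, Neurod1 -3.43 to 0.88, Esrrb -1.40 to 2.74 and Thrb -0.12 to 0.31.

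Low counts limit Rxrg in retina and Esrrb and Otx2 in RPE/choroid, and the cause of Otx2's low counts there was not tested. The spread of rod RNA between RPE/choroid libraries limits every rod-linked member there. A comparison of 3 against 3 libraries on a single value could not go below an exact permutation p of 0.1.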

Other observations

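Thrb, called lower in aged retina, had 1481 to 2885 counts in every RPE/choroid library, while the lowest RPE/choroid counts of Crx and Nrl were 89 and 48. Rxrg held 360 to 1837 counts in RPE/choroid libraries and 60 to 106 counts in retina libraries. The summed level of all 10 members was 1620 to 1800 CPM in young, 989 to 1230 CPM in aged and 1170 to 1370 CPM in treated retina. In RPE/choroid the same sum was 116 to 470 CPM in young, 92.6 to 396 CPM in aged and 87.3 to 839 CPM in treated libraries. Summed with its copy, Otx2 gave 118 to 130 CPM in young, 86.0 to 119 CPM in aged and 106 to 123 CPM in treated retina.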
